A study of Zea mays with 42 samples.

Results

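Endosperm at 25 days after pollination (DAP) was compared with endosperm at 20 DAP in the maize inbred line B73. The comparison used 6 of the 42 arrays of the series, 3 biological replicates at each age, and every probe set that was not an array control, 17621 in all. Plants of both ages were of the B73 genotype, had no treatment in the labels and were grown under ordinary farming practice, so the ages differ only in the time of harvest as far as the labels say. The series holds 14 tissues with 3 arrays each, namely embryo and endosperm at 4 ages and a set of vegetative and flower tissues, and was made to annotate the expression of bidirectional gene pairs. Embryos at 20 and 25 DAP and endosperm at 10 and 15 DAP are used below only as reference. The labels do not say how many ears or kernels went into a replicate, nor how the endosperm was separated from the embryo and the seed coat, so the aleurone, the basal transfer layer and tissue next to the embryo can all contribute RNA.

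The endosperm nourishes the embryo and the seedling. Its starchy cells fill with starch and with zeins, the prolamin storage proteins of maize, and die as the kernel matures. The aleurone, the outermost layer, stays alive, tolerates drying and builds up oil bodies and globulins as the embryo does, while the basal transfer layer takes up sugars and amino acids from the mother plant. Late embryogenesis abundant (LEA) proteins and dehydrins protect membranes and proteins during drying, and many of their genes respond to abscisic acid.

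Each probe set is a group of short oligonucleotides that reads 1 transcript or a few related ones, and its value on an array is a signal on a linear intensity scale. Arrays of 1 age correlated at r between 0.989 and 0.996 over all probe sets (log2 signals). The median signal lay between 395 and 426 on the 20 DAP arrays and between 436 and 453 on the 25 DAP arrays, and the scale was left as deposited. Arrays have no read depth, and their number, 3 per age, limits the precision. Markers of starchy endosperm were strong at both ages. The 15 zein probe sets had signals between 908 and 24254 on the 6 arrays. Opaque2 (o2), the bZIP activator of zein genes, had signals of 10347, 10072 and 10596 at 20 DAP and 11101, 10869 and 10932 at 25 DAP, against a mean of 100.3 in the 25 DAP embryo. The embryo globulin gene glb2 had 184, 201 and 271 at 20 DAP and 182, 182 and 221 at 25 DAP, which was 1.15% of the embryo level at 25 DAP. Other genes known from the embryo were nearer to it at 25 DAP, with 26.9% for glb1 and 45.6% for ole1, and are described below.

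A probe set was called higher or lower when the adjusted p was under 0.05 (limma, Benjamini-Hochberg over all 17621 probe sets) and the fold at least 2. From 20 to 25 DAP 697 probe sets were called higher (3.96%) and 79 lower (0.448%), which is 4.4% of all, and the median log2 fold of all probe sets was −0.0003. The count of lower calls depended on the scaling and was 171 after quantile normalization and 130 with arrays centred on their medians, against 718 and 605 called higher. Of those called higher, 221 changed by at least 4-fold and 59 by at least 8-fold, with a median of 2.99-fold. Of those called lower, 6 reached 4-fold and none reached 8-fold. P-values rest on the spread between replicate arrays in all tissues of the series, not in the endosperm at these ages alone. They measure spread between arrays, since the labels call the 3 of each age biological replicates but do not say which plants or ears they came from. The arrays of the ages did not overlap in 692 of the 697 and in 78 of the 79. Over all probe sets, 26.5% had every 25 DAP array above every 20 DAP array and 23.2% the reverse, so absence of overlap alone is common. A gene name was at hand for 116 of the higher and 7 of the lower probe sets, and the gene lists below therefore hold only part of their families. The RNA came from whole samples of tissue, in which more cells of a type and more RNA per cell cannot be told apart.

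**Figure D1:**
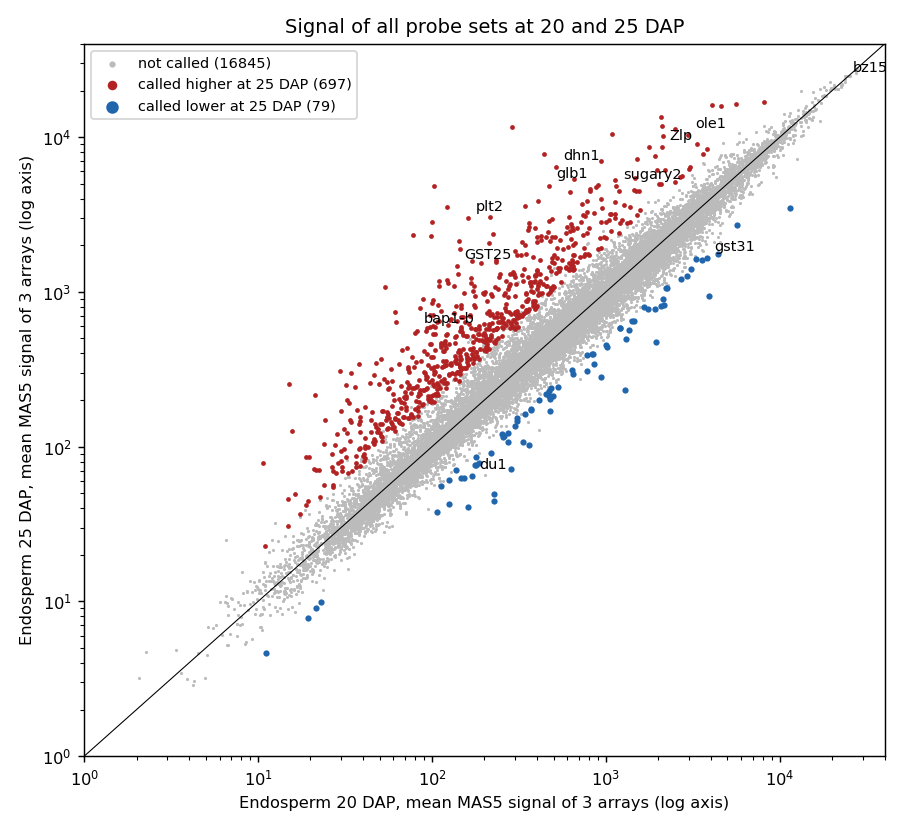
Mean signal of each of the 17621 probe sets in endosperm at 20 DAP (horizontal) and 25 DAP (vertical), 3 arrays each, both on log axes, with the line of equal signal. The 697 probe sets called higher spread far above the line, while the 79 called lower (171 after quantile normalization) stay closer to it.

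The 5 largest log2 folds belonged to probe sets without a gene name. Zm.2147.1.A1_s_at had signals of 129, 244 and 489 at 20 DAP and 11885, 11886 and 11309.6 at 25 DAP, a 47.0-fold change (log2 5.55, SE 0.36, adjusted p = 3.37e-13). A companion set of the same transcript group, Zm.2147.1.A1_a_at, had 68.6, 93.6 and 145 at 20 DAP and 5025, 4834 and 4699 at 25 DAP. All 25 DAP arrays lay far above all 20 DAP arrays in both sets. Zm.6105.1.S1_at, with 77.4, 95.9 and 126 at 20 DAP and 2619, 3179.7 and 2690.3 at 25 DAP, changed at least 26.1-fold and had a mean of only 42.9 in the 25 DAP embryo. For this fold and those of fad7 and bap1-b below, whose 20 DAP means were also under 100, signals under 100 were taken as 100. This makes each of them a lower bound. Log2 folds, counts by size of fold and folds without 1 array rest on the signals as deposited unless stated otherwise.

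Genes for storage and protection of the maturing seed were among the strongest increases. Of 7 probe sets for LEA proteins and dehydrins, 6 were called higher (85.7%, against 3.96% of all probe sets). These 6 stand for 4 genes, and none of the 7 was called lower. The median log2 fold of the 7 was 1.64. The summed signal of the 7 lay between 3326 and 4487 on the 20 DAP arrays and between 15735 and 19265 on the 25 DAP arrays. Dhn1, a dehydrin gene, had signals of 242, 428 and 874 at 20 DAP and 6664, 6626 and 5998 at 25 DAP (14.3-fold, adjusted p = 1.37e-05). Each 20 DAP array was far below each 25 DAP array, and the 20 DAP arrays differed among themselves more than those of 25 DAP. Mlg3, a LEA gene of group 3, had 280.1, 781 and 801 at 20 DAP and 4959, 4805 and 3487 at 25 DAP (7.80-fold). The dehydrin gene dhn2 had 537, 693 and 472 at 20 DAP and 1798, 2239.8 and 1619 at 25 DAP (3.34-fold) and was called higher by all 3 of its probe sets. Emb5, another LEA gene, had 147, 173 and 218 at 20 DAP and 556, 348 and 325 at 25 DAP (2.24-fold). Its 25 DAP level was 2.54% of the embryo level, and without 25 DAP replicate 1 its log2 fold was 0.92 and no longer called. The 1 LEA probe set not called, a4Lea, had a log2 fold of −0.25.

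Among 4 genes of embryo storage proteins and oil bodies, 2 were called higher, against 3.96% of all probe sets. Globulin1 (glb1), a storage globulin gene known from embryo and aleurone, had 194, 506 and 713 at 20 DAP and 5164, 5063 and 4344 at 25 DAP (11.7-fold, log2 3.55, SE 0.35, adjusted p = 5.06e-09). It did not overlap between ages and reached 26.9% of the 25 DAP embryo mean of 18032. Ole1, which encodes an oleosin of the oil body surface, had 705, 5723 and 2519 at 20 DAP and 10053, 11142 and 9768 at 25 DAP (4.76-fold). The 20 DAP arrays spread widely but all lay below the 25 DAP arrays. Without 20 DAP replicate 1 the fold was 2.71, and without replicate 2 it was 7.73. Glb2 and glb3 were not called, with log2 folds of −0.15 and 0.06. Glb3 had a high signal in endosperm at both ages, 18256, 18010.4 and 17723 at 20 DAP and 18699.7, 18498 and 19087 at 25 DAP, and a mean of 182 in the 25 DAP embryo.

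These genes differed widely in how near they came to the embryo. At 25 DAP the endosperm mean was 63.7% of the embryo mean for dhn1, 48.2% for mlg3, 45.6% for ole1 and 8.14% for esp1, a gene with an embryo mean of 21393. Over the 697 probe sets called higher, the 25 DAP embryo mean was at least 2 times the endosperm mean in 330 (47.3%, against 18.4% of all probe sets) and at most 0.5 times in 144 (20.7%, against 21.4%). It was under a signal of 100 in 69. A set of 15 probe sets was defined by signals under 100 on every 10 and 15 DAP endosperm array and at least 2000 in the 20 and 25 DAP embryo. Their median level in endosperm was 1.08%, 1.26% and 2.24% of the embryo level on the 20 DAP arrays and 1.51%, 1.52% and 1.32% on the 25 DAP arrays. Signals were under 100 in 14, 13 and 12 of the 15 on the 20 DAP arrays and in 10, 10 and 11 on the 25 DAP arrays. These medians therefore lie near the low end of the scale and do not measure how much embryo RNA was present. Of the 15 probe sets, 5 were called higher, against 3.96% of all probe sets. These 5 reached a larger part of the embryo level at 25 DAP, 19.7% for Zm.2869.1.A1_at, 19.2% for Zm.9859.1.A1_at, 8.14% for esp1, 7.75% for Zm.8578.1.A1_at and 4.82% for Zm.6882.1.A1_s_at. The other 10 had between 0.422% and 2.01%. The part that RNA of adhering embryo tissue has in the changes above was not tested beyond these values.

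**Figure D2:**
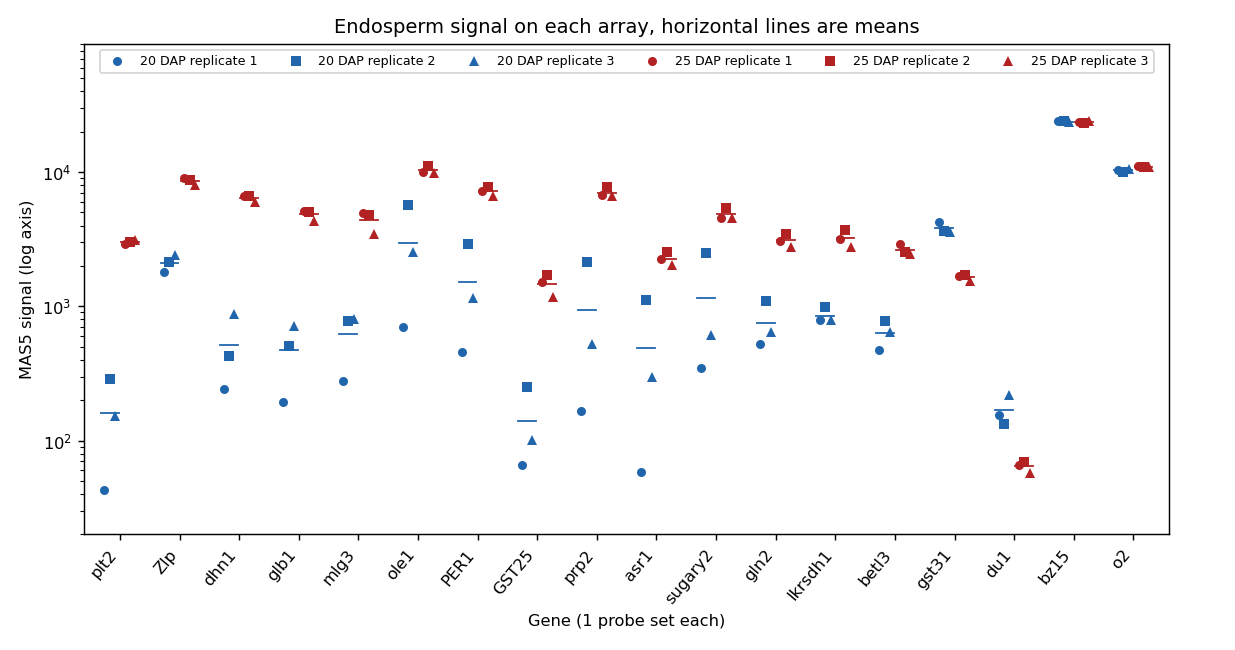
Signal on each of the 6 endosperm arrays (log axis) for 18 named genes, 20 DAP in blue and 25 DAP in red, with the replicate shown by the marker and the mean by a line. The 25 DAP replicates sit close together, whereas the 20 DAP replicates of ole1, PER1, prp2, asr1 and sugary2 spread widely, with replicate 1 lowest and replicate 2 highest.

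The 20 DAP arrays spread in a shared order in many of the genes called higher. Replicate 1 was the lowest 20 DAP array in 519 of the 697 and replicate 2 the highest in 500. The median level on the 20 DAP arrays was 27.8%, 41.1% and 32.9% of the 25 DAP mean for replicates 1, 2 and 3. Leaving out 20 DAP replicate 1 gave 569 probe sets called higher, and leaving out replicate 2 gave 752. Among the 71 called probe sets that are named here, the fold moved by more than 1.5 times in 12 without replicate 1, in 10 without replicate 2 and in 2 without replicate 3 of 20 DAP. All 12 became smaller without replicate 1, to between 2.28-fold and 22.5-fold. All of these probe sets were still called. The same counts over all probe sets are not given here. The log2 ratio of the 3' to the 5' GAPDH control signal was 0.03, 0.88 and 0.62 on 20 DAP replicates 1, 2 and 3. On the 25 DAP arrays it was 0.30, 0.32 and 0.49. The median signals of 20 DAP replicates 1, 2 and 3 were 395, 426 and 419. What separates the 20 DAP replicates was not tested, and the labels give them no further description.

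Plt2, which encodes a phospholipid transfer protein, was the gene with a name and the largest fold. It had signals of 42.6, 289.9 and 152 at 20 DAP and 2924, 2989 and 3112 at 25 DAP (24.4-fold, log2 4.61, SE 0.60, adjusted p = 9.68e-07). Its fold was 14.3 without 20 DAP replicate 1 and 37.4 without replicate 2. PLTP, a further phospholipid transfer protein gene that was chosen after its values were seen, was called higher by 3 of its 4 probe sets, and the fourth had a log2 fold of −0.16. Its Zm.2085.1.S1_s_at set had 1001, 8945 and 3867 at 20 DAP and 15448, 16229 and 15945 at 25 DAP (4.87-fold), with 20 DAP replicate 2 much nearer to the 25 DAP arrays than replicate 1. Without 20 DAP replicate 1 its fold was 2.70, and without replicate 2 it was 8.07.

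Of 17 probe sets for protease inhibitors and defence proteins, 3 were called higher (17.6%, against 3.96% of all probe sets) and none lower. The median log2 fold of the 17 was 0.50. Zlp, a gene for a zeamatin-like antifungal protein, had 187, 385 and 749 at 20 DAP and 8091, 7995 and 7317 at 25 DAP (20.6-fold) in 1 probe set and 1790.1, 2129 and 2413 at 20 DAP and 8979, 8747 and 8010.1 at 25 DAP (4.09-fold) in the other. Both sets placed every 25 DAP array above every 20 DAP array but differed in size. Prp2, a gene for a pathogenesis-related protein, had 167, 2133 and 523 at 20 DAP and 6725, 7730.3 and 6585 at 25 DAP (12.2-fold), and its fold was 6.62 without 20 DAP replicate 1 and 23.6 without replicate 2. Asr1, a gene of the ABA-, stress- and ripening-induced family, had 58.7, 1112 and 298 at 20 DAP and 2252, 2533 and 2026 at 25 DAP (8.41-fold, or 3.93-fold and 17.1-fold without 20 DAP replicate 1 or 2). In each of these genes the ages did not overlap. Fad7, for a plastid fatty acid desaturase, had 39.1, 82.9 and 63.6 at 20 DAP and 598, 819 and 510.2 at 25 DAP and changed at least 6.30-fold. It was the 1 called of 7 lipid metabolism probe sets (14.3%, against 3.96% of all called higher). HMT-4, for a homocysteine S-methyltransferase, had 169, 466 and 347 at 20 DAP and 2127, 2287 and 1929 at 25 DAP (log2 2.81), still 23.1% of the embryo level.

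Glutathione S-transferases, which couple glutathione to toxic or oxidized compounds, moved in both directions. Of 52 probe sets for oxidative stress, 9 were called higher (9 genes) and 4 lower (1 gene), and the median log2 fold was 0.26. The higher calls made up 17.3% of the list, against 3.96% of all probe sets, of which 0.448% were called lower. GST25 had signals of 66.0, 251 and 101 at 20 DAP and 1520.1, 1699 and 1165 at 25 DAP (12.1-fold, adjusted p = 1.59e-06). Gst42 had 1098, 845 and 867 at 20 DAP and 4196, 3598 and 4224 at 25 DAP (4.30-fold). GST3 had 612, 983 and 807 at 20 DAP and 2636, 2743 and 2395 at 25 DAP (3.29-fold). None of these genes overlapped between ages. PER1 had 454, 2918 and 1150.4 at 20 DAP and 7203, 7710.1 and 6635 at 25 DAP (6.23-fold), with the 20 DAP arrays spread over a wide range. Its fold was 3.91 without 20 DAP replicate 1 and 9.92 without replicate 2. The other probe set named PER1 was not called. The gene gst31 went the other way in all 4 of its probe sets. In the strongest it had 4237, 3658 and 3576 at 20 DAP and 1669.9, 1717 and 1544 at 25 DAP (log2 −1.22, SE 0.30, adjusted p = 0.00409), and the other sets had log2 folds between −1.19 and −1.14. Its 15 DAP mean was 4714, so the level was already high before 20 DAP. The call of 1 gst31 set was lost without 20 DAP replicate 1 (adjusted p = 0.0582).

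Many transfer layer genes rose. Of 16 probe sets, 9 were called higher (7 genes) and none lower, against 3.96% of all probe sets called higher. The median log2 fold of the 16 was 1.85, or 0.68 with signals under 100 taken as 100. The summed signal lay between 4582 and 5987 on the 20 DAP arrays and between 11245 and 13760 on the 25 DAP arrays. Betl3, a gene for a basal endosperm transfer layer protein, had 474, 782 and 647 at 20 DAP and 2920.2, 2546 and 2448 at 25 DAP (4.23-fold, log2 2.08, SE 0.35, adjusted p = 5.84e-05). Betl4 had 147, 159 and 136 at 20 DAP and 636, 665 and 769 at 25 DAP (4.67-fold). Meg2, a member of the maternally expressed gene family, had 209.6, 397 and 274 at 20 DAP and 1705, 1217 and 1129.8 at 25 DAP (4.68-fold). In all of these the ages did not overlap, and the 20 DAP arrays spread less than they did in ole1. Bap1-b, for a basal layer antifungal protein, had 60.8, 91.4 and 93.2 at 20 DAP and 759.5, 504 and 421 at 25 DAP (at least 5.44-fold). BETL1 had 735, 809 and 831 at 20 DAP and 1586, 1398 and 1304 at 25 DAP, a fold of 1.80 that stayed under the threshold, and MRP1, the MYB activator of transfer layer genes, had a log2 fold of 0.07.

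The earlier course of these genes differed. Bap1-b had means of 902 at 10 DAP and 241 at 15 DAP before 81.8 at 20 DAP, and meg2 had 2366, 575 and 294. Both means were therefore highest at 10 DAP and lowest at 20 DAP, but the 10 DAP arrays spread widely (SD 588 and 1544). The fall from 15 to 20 DAP was not called in these sets (limma, adjusted p = 0.15 for each) but was in the other bap1-b set. Betl3 had means of 573, 817 and 635 at these ages, and its 25 DAP mean was the highest of the 4. The aleurone and embryo-surrounding region lists held no probe set called higher. They do not hold glb1, which is known from embryo and aleurone and was called higher, as described above. None of 7 aleurone probe sets (c1, a2, cr4, dek1 and Nkd1) was called, with a summed signal of 7076 to 7913 at 20 DAP and 5778 to 6909 at 25 DAP. Of 5 embryo-surrounding region sets, 1 was called lower, against 0.448% of all probe sets. This was ESR1, with 198, 476 and 149.7 at 20 DAP and 96.4, 161 and 112 at 25 DAP and overlapping arrays. Its call rested on 20 DAP replicate 2, without which the log2 fold was −0.52 (adjusted p = 0.399). The part of dissection or of cell numbers in the rise of the transfer layer genes was not tested.

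**Figure D3:**
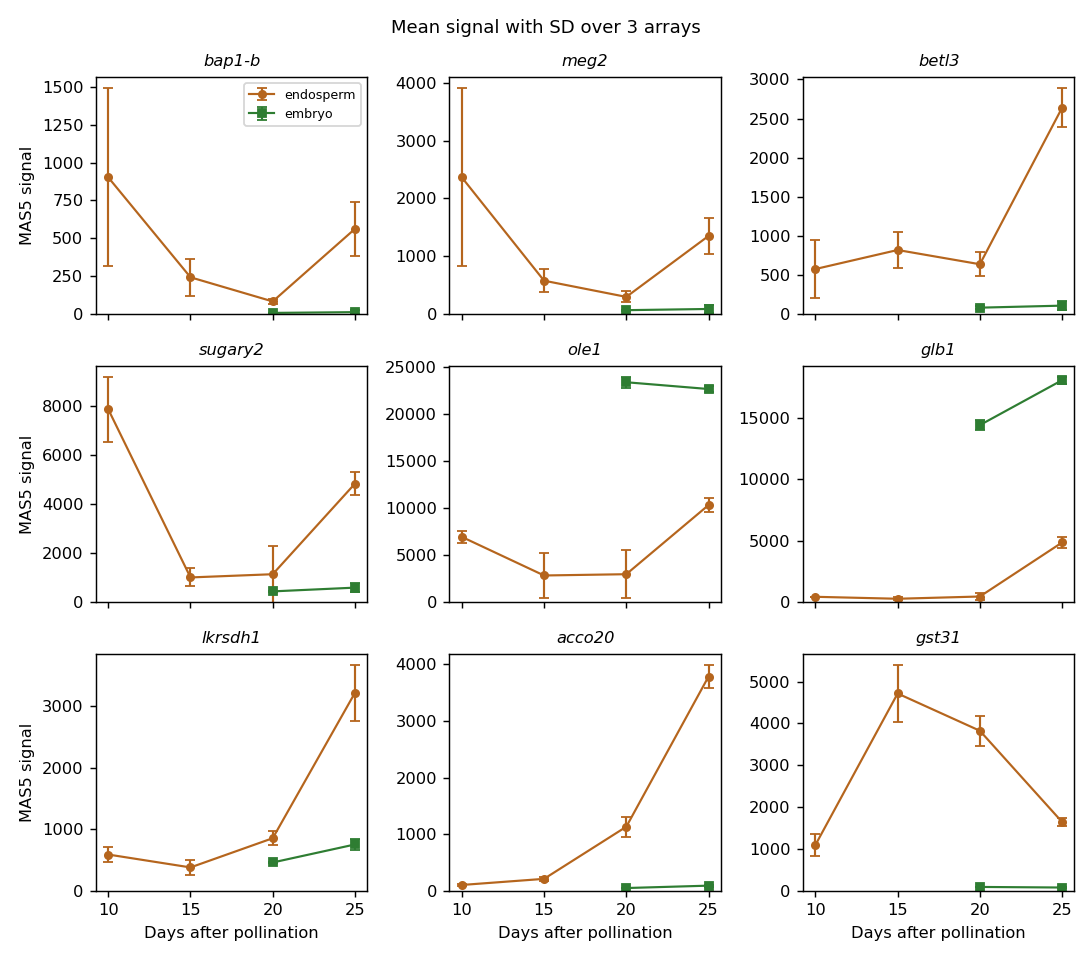
Mean signal with SD over 3 arrays in endosperm from 10 to 25 DAP (circles) and in embryo at 20 and 25 DAP (squares) for 9 genes, each with its own axis from 0. Meg2, bap1-b and sugary2 are high at 10 DAP, low at 15 and 20 DAP and high again at 25 DAP, whereas lkrsdh1 and acco20 are highest at 25 DAP and gst31 is highest at 15 DAP.

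None of the 15 zein probe sets (9 genes) was called in either direction. Every 25 DAP array was above every 20 DAP array in 7 of the 15, against 26.5% of all probe sets. The reverse held in 4, against 23.2% of all. The median log2 fold of the 15 was −0.01, with a range from −0.08 to 0.68. Bz15, for a beta-zein, had 23898, 24033 and 23467 at 20 DAP and 23536, 23166 and 24122 at 25 DAP (log2 −0.01, SE 0.62), and the ages overlapped. Its mean was already 23785 at 15 DAP, and it stands near the top of the signals on these arrays, as do further sets for gz27, dzs18 and gz50. Whether such signals were saturated was not tested, so they do not show that the transcript level was steady. The set with the highest fold, for the alpha-zein z1C1_12, had 5444, 5503 and 6463 at 20 DAP and 8867, 9616 and 9396 at 25 DAP. The ages did not overlap, and the adjusted p (limma) was 0.495. That p and the SE of bz15 come from the fit over all tissues and do not measure the spread of the endosperm arrays alone. The embryo means of z1C1_12 were 29.5 at 20 DAP and 27.1 at 25 DAP, near the low end of the scale. All zein folds were under the threshold of 2, so none could be called whatever its p. Alpha-zein genes are near-identical copies, so a probe set can read several of them. O2 and PBF, the DNA-binding activators of zein genes, had log2 folds of 0.09 and −0.15. None of the 17 probe sets for endosperm regulators was called. The lowest of them was mez1, a Polycomb group gene, with 1313, 1483 and 1704 at 20 DAP and 915, 840.1 and 863 at 25 DAP (log2 −0.77, adjusted p = 0.0211), a fold under the threshold.

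Most starch genes had slightly lower signals at 25 DAP, although few passed the test. Of 20 starch synthesis probe sets 1 was called higher (5.0%, against 3.96% of all probe sets) and 1 lower, against 0.448% of all. The median log2 fold was −0.23, and 13 of the 20 had every 25 DAP array below every 20 DAP array, against 23.2% of all probe sets. The median stayed below 0 under each scaling tried, between −0.34 and −0.20. Brittle1 (bt1), for the ADP-glucose transporter of the plastid envelope, had 9307, 9190.02 and 9260.03 at 20 DAP and 6565, 6367 and 6577 at 25 DAP (log2 −0.51, SE 0.28). Ss1, a soluble starch synthase gene, had 8874, 8909 and 9601 at 20 DAP and 6553, 6404 and 6244 at 25 DAP (log2 −0.51, SE 0.13, adjusted p = 0.00611). In neither gene did the ages overlap, and both folds were under the threshold of 2. Bt2 and sh2, for the small and large subunits of ADP-glucose pyrophosphorylase, had log2 folds of −0.30 and −0.14, and wx1, for granule-bound starch synthase, had −0.21. In the fit over all 42 arrays, which takes the spread from all tissues, the adjusted p was 0.26 for bt1 and 0.831 for wx1. A fit on the arrays of the 2 ages alone gave 2.94e-06 for bt1 and 0.000101 for wx1, with the same folds.

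Sugary2, higher, and du1, lower, were the only starch genes called. Sugary2, a starch synthase gene, had 348, 2476 and 614 at 20 DAP and 4582, 5396 and 4544 at 25 DAP (5.97-fold, adjusted p = 3.23e-05). The 20 DAP arrays spread over a wide range below the 25 DAP arrays, and the fold was 3.91 without replicate 1 and 10.4 without replicate 2 of 20 DAP. Its endosperm means were 7875 at 10 DAP and 1015 at 15 DAP, and its 25 DAP embryo mean was 599. Du1, for another starch synthase, had 154, 134 and 219.8 at 20 DAP and 66.1, 69.6 and 57.4 at 25 DAP (log2 −1.37, adjusted p = 1.07e-05), near the low end of the scale. With signals under 100 taken as 100, its 25 DAP level was at most 0.604 of the 20 DAP level. Among 14 probe sets for sucrose and hexose use, sus1 alone was called (7.14%, against 3.96% of all probe sets called higher). This sucrose synthase gene had 282, 1107 and 497 at 20 DAP and 2074, 2738 and 1822 at 25 DAP (4.05-fold), while sh1, the sucrose synthase gene of the starchy endosperm, had 15696, 15556 and 15484 at 20 DAP and 13382, 13599 and 13279.7 at 25 DAP (log2 −0.22).

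**Figure D4:**
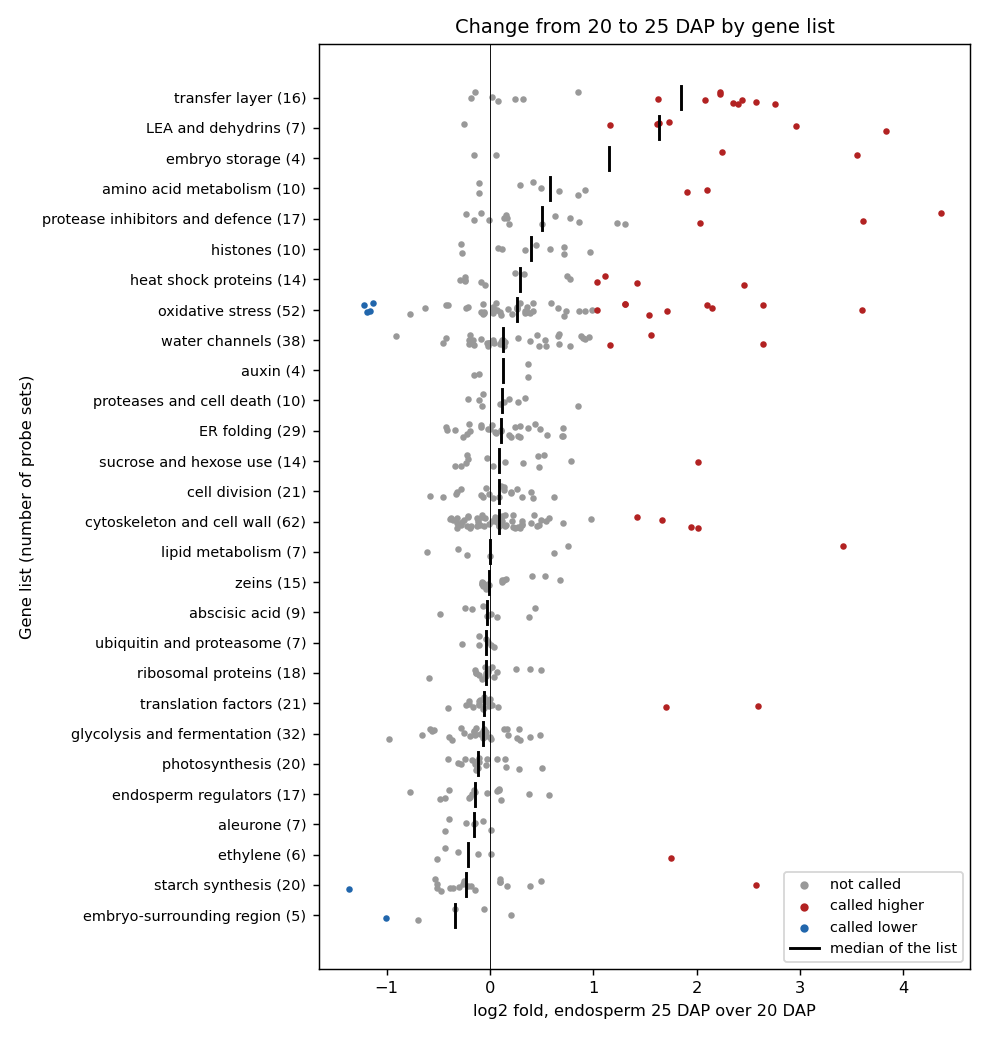
Log2 fold of endosperm at 25 DAP over 20 DAP for the probe sets of 28 gene lists (number of probe sets in brackets), 1 point per probe set coloured by its call, with a line at the median of each list. Transfer layer genes, LEA proteins and dehydrins have medians of 1.85 and 1.64, whereas the zein list has a median of −0.01 and the starch list has a median of −0.23.

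Of 10 probe sets for amino acid metabolism, 2 were called higher and none lower (median log2 fold 0.58), against 3.96% of all probe sets called higher. Lkrsdh1, for the bifunctional enzyme that begins lysine breakdown, had 788, 985 and 787 at 20 DAP and 3177, 3688 and 2775 at 25 DAP (3.76-fold, adjusted p = 1.06e-05). Gln2, a glutamine synthetase gene, had 525, 1099 and 645 at 20 DAP and 3059, 3451 and 2777 at 25 DAP (4.29-fold). Neither gene overlapped between ages. Acco20, a gene of ACC oxidase, which makes ethylene, had 1068, 1328 and 1001 at 20 DAP and 3831, 3959 and 3567 at 25 DAP (3.37-fold, adjusted p = 3.29e-05). Its earlier endosperm means were 103 at 10 DAP and 211 at 15 DAP, and its 25 DAP embryo mean was 90.8, so among the seed samples named here the signal was high in late endosperm only. The other 5 ethylene probe sets were not called.

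Of 38 probe sets for water channels, 3 were called higher (7.89%, against 3.96% of all probe sets) and none lower. The tonoplast aquaporin gene TIP2-3 had 91.8, 156 and 71.7 at 20 DAP and 603, 736 and 563 at 25 DAP (6.25-fold), and its 25 DAP embryo mean was 122. Pip1-2, for a plasma membrane aquaporin, had 129, 387 and 199 at 20 DAP and 679, 685 and 542 at 25 DAP (2.94-fold). PIP1-3 was called at a low signal (54.1, 109.7 and 63.1 at 20 DAP and 153, 169.9 and 160.1 at 25 DAP) and lost its call without 20 DAP replicate 1 and with a pseudocount of 32. Its other probe sets were not called. Of 62 probe sets for the cytoskeleton and cell wall, 4 were called higher (6.45%) and none lower, all for expansins, which loosen cell walls. Neither list's share is far from that of all probe sets. ExpB8 had 227, 427 and 333 at 20 DAP and 1326, 1432 and 1121 at 25 DAP (4.04-fold). ExpA4 had 441, 392 and 277 at 20 DAP and 1145, 1335 and 1004 at 25 DAP (3.17-fold), and in neither of these probe sets did the ages overlap. The 4 calls came from 3 genes, and some other probe sets of expB8 and expA4 were not called. ExpB3 (3.86-fold, log2 1.95) lost its call without any single array other than 20 DAP replicate 2, and without that array its fold was 6.24.

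Many lists held no call. None of 18 ribosomal protein, 29 endoplasmic reticulum folding, 21 cell division, 32 glycolysis and fermentation or 20 photosynthesis probe sets was called, and their medians lay between −0.11 and 0.10. Nor was any of 10 histone, 10 protease and cell death, 7 ubiquitin and proteasome, 4 auxin or 9 abscisic acid probe sets. Vp1, the B3 activator of seed maturation genes that acts with abscisic acid, had 465, 647 and 682 at 20 DAP and 735, 792 and 775 at 25 DAP in its strongest set (log2 0.38, adjusted p = 0.15).

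The probe sets called lower rarely had a name. Zm.6398.1.A1_at had signals of 1279, 1147 and 1434 at 20 DAP and 237, 235 and 224 at 25 DAP (log2 −2.47, SE 0.24, adjusted p = 2.69e-09), the lowest log2 fold of all. Its endosperm mean was 351 at 15 DAP, and its embryo means were 908 and 929 at 20 and 25 DAP. Zm.15735.1.S1_at had 4232, 3575 and 3995 at 20 DAP and 1020.4, 855 and 959 at 25 DAP, after means of 5056 at 10 DAP and 6281 at 15 DAP, and its embryo mean was 27.3. Zm.10111.1.A1_at had 1924, 1698 and 2204 at 20 DAP and 438, 542 and 439.8 at 25 DAP (log2 −2.04). All 3 had each 25 DAP array well below each 20 DAP array. Of the 79 probe sets called lower, 14 had been called higher from 15 to 20 DAP, in a comparison that shares the 20 DAP arrays. Of the 697 called higher, 28 had been called higher and 32 lower in that comparison. From 15 to 20 DAP itself 162 probe sets were called higher (0.919%) and 114 lower (0.647%).

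The embryo of the same ages shares no array with the endosperm, so the difference between the changes of both tissues could be tested. From 20 to 25 DAP, 290 probe sets were called higher (1.65%) and 177 lower (1.0%) in the embryo. The change in endosperm exceeded that in embryo in 658 probe sets (3.73%) and was below it in 443 (2.51%), by the limma interaction contrast. Of the 697 called higher in endosperm, the embryo was also called higher in 61, and the difference was called higher in 396. Of the 79 called lower, 52 had a difference called lower. Plt2 rose by 4.61 log2 units in endosperm and had 1.00 in the embryo, a difference of 3.61 (SE 0.85, adjusted p = 0.00367). For glb1 the difference was 3.23 (SE 0.50, adjusted p = 3.54e-05), and for dhn1 3.10 (SE 0.84, adjusted p = 0.0105). All 3 genes had higher embryo means than endosperm means at both ages. GST25 had embryo means of 1649 and 1716, and its difference was 3.56. For lkrsdh1 the difference was 1.21 (adjusted p = 0.0441), and for acco20 it was 0.87 (adjusted p = 0.163), which did not pass.

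In the opposite direction, some genes were called higher in the embryo and not in endosperm. RR9, a cytokinin response regulator gene, had endosperm signals of 353, 348 and 345 at 20 DAP and 261, 249 and 287 at 25 DAP and embryo means of 511 and 1421, a difference of −1.87 (SE 0.35, adjusted p = 0.000405). MYB-IF35 had endosperm signals of 712, 722 and 758 at 20 DAP and 435, 427 and 361 at 25 DAP and embryo means of 101 and 360.5 (difference −2.66, adjusted p = 1.36e-05). Its endosperm arrays did not overlap, with a log2 fold of −0.85 that stayed under the threshold.

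Genes of bidirectional pairs, which are transcribed away from a shared promoter region and were the subject of the study, were called about as often as all probe sets. Of the 562 probe sets listed for such genes, 23 were called higher (4.09%, against 3.96% of all) and none lower, and their median log2 fold was 0.005. The study chose some pairs for promoter assays on the embryo values of these arrays, and their 18 probe sets had a median log2 fold of 0.17 in endosperm, from −0.30 to 1.50. GRMZM2G366392 of pair MA-14 alone was called, with 1240.2, 1354 and 1227 at 20 DAP and 3491, 4212 and 3195 at 25 DAP (2.84-fold, log2 1.50, SE 0.18, adjusted p = 2.12e-07). The ages did not overlap, and the embryo mean went from 1664 to 3692 over the same days (difference 0.35, adjusted p = 0.414). Its partner in the pair, GRMZM2G067417, had a log2 fold of 0.14. GRMZM5G801031 of MA-41 had 495, 557 and 409 at 20 DAP and 927, 996 and 932 at 25 DAP (log2 0.98) and was called only with arrays centred on their hybridization controls or without 20 DAP replicate 2.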

How the data were processed

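Values were taken from the table of processed values that the authors deposited, which holds 1 MAS5 signal per probe set and array on a linear intensity scale. The MAS5 version and its scaling target are not given in the sources used here. The table holds 17734 probe sets on 42 arrays of 14 tissues (3 each); 113 array controls were left out, and 17621 (17555 for maize, 66 for reporter genes) were tested. Scanner files and detection calls were not analysed here. Signals were put on the log2 scale without further scaling. Group means of all 42 arrays were fitted in limma 3.58.1 (R 4.3.3; eBayes with a trend), and p-values were adjusted by Benjamini-Hochberg over all probe sets. The change in endosperm minus that in embryo was an interaction contrast of the same fit. The fit was tested on simulated data: of 100 probe sets given a log2 change of 1.5, 89% were called, and of 100 given 3.0, 100% were, with 2 false calls. For the interaction contrast 71% and 98% were, with 7 false calls. These rates hold for the simulated noise only. In the real arrays the spread differed between tissues, and replicates of the younger endosperm shared an order in many genes called higher. Whether the rates hold under such conditions was not tested.

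Gene names came from the platform annotation (1453 probe sets, 1452 with 1 gene; 1377 were found in RefSeq) and, for 524 more, from the study's pair worksheet. Named were called probe sets whose ages did not overlap and whose higher mean was at least 100: the 12 with a gene symbol and the 5 of any kind with the largest fold each way, and the 3 largest each way of each gene list. The 5 largest differences from embryo each way among genes with a name, o2, PBF, zeins, several starch genes and the pairs taken to promoter assays were named whatever their change. Other genes named in the text were added after their values were seen. The gene lists and the comparison itself were chosen with earlier results of these data known, so they give no independent support. Other settings tried were quantile normalization, arrays centred by their medians or by the 9 hybridization control probe sets, a pseudocount of 32, filters on low signals, no trend in eBayes, a fit of the arrays at issue alone, a replicate block and leaving out each array. Python 3.11.15, numpy 2.4.6, pandas 2.3.3 and matplotlib 3.10.9 were used for the rest. No sequence is printed because none was at hand for these probe sets.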

Additional observations from a re-analysis of the deposited data

Results flagged for a closer look

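Differences between endosperm and embryo in the change from 20 to 25 DAP were picked out because the interaction contrast (limma, adjusted p under 0.05 and a difference of at least 2-fold) tests the difference itself. It passed in 658 probe sets with the change in endosperm above that in embryo and in 443 with it below. The largest named differences upward were those of plt2 (3.61 on the log2 scale), GST25 (3.56), glb1 (3.23), prp2 (3.17) and dhn1 (3.10). In embryo the log2 changes of these genes were 1.00, 0.04, 0.33, 0.45 and 0.74, none of them called. The largest named differences downward were those of MYB-IF35 (−2.66), GRMZM2G109550 (−2.29), RR9 (−1.87), GRMZM2G140223 (−1.83) and GRMZM2G041109 (−1.81). Of these, MYB-IF35, RR9 and GRMZM2G041109 were called higher in the embryo, and none was called in endosperm. The endosperm signals of all 5 upward genes varied widely between the 20 DAP arrays, as described above.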

How the results depend on the processing

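The 697 probe sets called higher became between 569 and 752 when 1 endosperm array was left out, and the 79 called lower between 66 and 84. Without the fold threshold 1697 passed upward and 958 downward. The count of lower calls was 171 after quantile normalization and 130 with arrays centred on their medians, both of which hold all 79, and 49 with a pseudocount of 32. These scalings moved the median log2 fold of all probe sets to −0.07 and −0.11, and centring on hybridization controls moved it to 0.03. The difference from embryo passed upward in 433 and downward in 237 with arrays centred on hybridization controls, against 658 and 443, and in 1323 and 1177 without the fold threshold. Leaving out 1 array gave between 513 and 719 upward and between 336 and 472 downward. Whether equal replicate numbers pair the arrays was not settled. Deviations of equal numbers correlated at 0.061, 0.144 and 0.267, and each array correlated best with its own number. Those of unequal numbers correlated between −0.268 and 0.055. With the replicate block 700 were called higher and 80 lower, and 667 and 444 for the difference. Of 71 named probe sets that were called, 61 were called under every alternative and none reversed. The other calls were lost in 43 settings, for example mas1, HSP18 and expB3 without most single arrays, and the cause was not tested. Many named probe sets were picked for a large fold without overlap, so their count does not stand for all calls. Over all calls, leaving out 1 endosperm array kept between 556 and 675 of the 697 higher and between 59 and 69 of the 79 lower. Arrays have no depth, and the 42 higher calls with both means under 100 lie near the low end of the scale.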

Other observations

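The following genes were chosen after their values were seen, belong to no list counted here and are given as single values. ICL, for isocitrate lyase of the glyoxylate cycle, had 90.3, 154 and 143 at 20 DAP and 338, 375 and 299 at 25 DAP (2.67-fold, adjusted p = 2.82e-07, limma), while its other probe set had a log2 fold of −0.13. Mas1, for malate synthase of the same cycle, had 1068, 1183 and 1115 at 20 DAP and 3089, 3448 and 2988 at 25 DAP (log2 1.50, adjusted p = 0.0281), a call that was lost without any single array. Opr5, for an oxophytodienoate reductase, had 193, 285 and 188 at 20 DAP and 630.5, 765 and 486 at 25 DAP (2.83-fold), with no overlap between ages. Aoc1, for allene oxide cyclase, had 759, 1422 and 804 at 20 DAP and 2305, 2441 and 1937 at 25 DAP (2.32-fold) in 1 of its 2 probe sets, and the other was not called (log2 0.33). Opr7 had 261, 275 and 223 at 20 DAP and 571, 525 and 451 at 25 DAP (log2 1.03), close to the fold threshold, and its call was lost under 4 settings, among them arrays centred on their medians.

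Of 14 heat shock protein probe sets 4 were called higher from 20 to 25 DAP (28.6%, against 3.96% of all probe sets). The median log2 fold of the 14 was 0.29. Those called were hsp18, hsp18f, HSP18 and hsp22, the latter pair near the fold threshold and lost under several settings. Hsp18, for a small heat shock protein, had 303, 430.1 and 301 at 20 DAP and 1122, 2758 and 2110.2 at 25 DAP (5.50-fold, adjusted p = 6.76e-08), after a mean of 2619.9 at 15 DAP. Hsp18f had 3093, 3548 and 3399 at 20 DAP and 7843, 9791 and 9298 at 25 DAP (2.67-fold), after a mean of 11469. From 15 to 20 DAP, in a comparison that shares the 20 DAP arrays, the log2 changes were −2.95 for hsp18 and −1.78 for hsp18f. Both probe sets of the translation elongation factor gene EF1-A that were called higher belong to a large gene family with near-identical copies, and the stronger one had 588, 3385 and 2442 at 20 DAP and 10160.5, 10749 and 9725 at 25 DAP (6.02-fold). Without 20 DAP replicate 1 its fold was 3.55. The other 19 translation factor probe sets were not called. One reporter gene probe set was called higher at signals near the low end of the scale, 37.8, 44.6 and 56.5 at 20 DAP and 103, 96.5 and 110.1 at 25 DAP (log2 1.17, adjusted p = 0.00236).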
